A study of Homo sapiens with 6 samples.

Results

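The AP-1 subunit genes FOS, FOSB, FOSL1, FOSL2, JUN, JUNB and JUND, the related bZIP gene ATF3, and the immediate early genes EGR1 and MYC were followed through CUT&Tag peak lists of CTCF and SMC1 (a subunit of cohesin) in IMR90 human lung fibroblasts. The 10 genes were chosen by name, out of 19630 protein-coding genes with a known strand, and every listed peak that overlapped the gene body extended by 50 kb on each side was assigned to its gene. These windows held 154 SMC1 peaks and 90 CTCF peaks over 6 lists. Each antibody was used once in control cells, once in cells given ICM (inflachromene, a small molecule that binds HMGB proteins) and once in senescent cells, with 1 library per condition and no replicate, so no test between conditions was possible. All cells were of the IMR90 line. For CTCF the control cells were at p21, the ICM-treated cells at p16 after 6 days of ICM, and the senescent cells at p34. For SMC1 the control and the ICM-treated cells were at p16, with no length of treatment in the labels, and the senescent cells at p34. The p34 libraries carry no treatment in their names and are called senescent here because the description of the series names that state. The number after p and the condition therefore cannot be told apart in the senescent lists, nor in the CTCF control and ICM lists.

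AP-1 is a dimer of bZIP proteins in which a FOS family member pairs with a JUN family member, and ATF3 can join such dimers. Immediate early genes are transcribed within minutes of growth factor or stress signals without new protein synthesis, and many encode transcription factors that act on a later set of genes. Cohesin, the ring complex that holds SMC1, extrudes chromatin loops and is halted at DNA-bound CTCF, and it is also found at active promoters and enhancers where CTCF is absent. A peak in these lists is a stretch of DNA whose summed CUT&Tag signal was in the top 1% of candidate stretches of that library, so a place without a peak fell below that limit and was not shown to be free of the protein. The lists held 14883 control, 17809 ICM and 12927 senescent peaks for SMC1, and 4673, 6728 and 8577 for CTCF. The depth of each library was not known and the signal had no known common scale between lists, so each peak is described by its percentile within its own list, by the total signal over the peak or by its highest signal. The lists were checked against marker genes. SMC1 peaks lay at the promoters of 5, 4 and 3 of 8 fibroblast markers in the control, ICM and senescent lists. The shares of all protein-coding genes were 31.7%, 27.6% and 22.3%. COL1A2 and VIM had one in every list, and COL3A1, THY1 and LUM had none in any. None of the blood, epithelial and endothelial markers found had one. Peaks do not measure RNA, so this is no measure of cell purity.

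The 250 bases upstream of the 5′ end are shown for the 6 genes on which the promoter results turn, as given by RefSeq on GRCh38.p14, each read 5′ to 3′ towards its gene. Capitals mark matches to TGACNTCA (a cAMP-response-element-like site that ATF and JUN proteins can bind), to TATAAA (the TATA box) or to the CArG box (the serum response factor site).
FOS, chr14:75278578-75278827, plus strand: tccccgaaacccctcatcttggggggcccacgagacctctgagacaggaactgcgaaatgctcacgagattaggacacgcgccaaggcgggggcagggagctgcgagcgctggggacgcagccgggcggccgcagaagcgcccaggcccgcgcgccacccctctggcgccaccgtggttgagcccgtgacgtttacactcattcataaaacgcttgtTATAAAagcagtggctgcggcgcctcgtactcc
FOSL2, chr2:28392608-28392857, plus strand: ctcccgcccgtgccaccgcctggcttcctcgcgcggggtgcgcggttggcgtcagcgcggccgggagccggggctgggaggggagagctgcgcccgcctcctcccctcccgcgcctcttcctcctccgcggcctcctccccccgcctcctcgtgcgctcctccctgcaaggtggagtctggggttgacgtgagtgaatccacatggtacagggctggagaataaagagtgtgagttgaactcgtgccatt
JUN, chr1:58784048-58784297, minus strand: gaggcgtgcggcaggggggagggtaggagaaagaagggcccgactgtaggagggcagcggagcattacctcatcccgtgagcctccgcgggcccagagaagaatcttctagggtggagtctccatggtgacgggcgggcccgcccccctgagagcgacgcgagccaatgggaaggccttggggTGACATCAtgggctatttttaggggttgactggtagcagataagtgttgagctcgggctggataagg
JUNB, chr19:12791236-12791485, plus strand: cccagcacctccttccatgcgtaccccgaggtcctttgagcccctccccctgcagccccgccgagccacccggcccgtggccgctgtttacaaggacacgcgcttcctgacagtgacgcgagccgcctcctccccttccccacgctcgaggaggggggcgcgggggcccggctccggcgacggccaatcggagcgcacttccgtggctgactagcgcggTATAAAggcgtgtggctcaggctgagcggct
JUND, chr19:18281623-18281872, minus strand: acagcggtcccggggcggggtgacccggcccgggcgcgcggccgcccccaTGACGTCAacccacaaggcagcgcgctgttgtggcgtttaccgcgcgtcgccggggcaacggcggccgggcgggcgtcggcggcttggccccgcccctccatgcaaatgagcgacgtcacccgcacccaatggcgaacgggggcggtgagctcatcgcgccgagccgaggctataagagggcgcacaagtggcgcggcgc
EGR1, chr5:138465229-138465478, plus strand: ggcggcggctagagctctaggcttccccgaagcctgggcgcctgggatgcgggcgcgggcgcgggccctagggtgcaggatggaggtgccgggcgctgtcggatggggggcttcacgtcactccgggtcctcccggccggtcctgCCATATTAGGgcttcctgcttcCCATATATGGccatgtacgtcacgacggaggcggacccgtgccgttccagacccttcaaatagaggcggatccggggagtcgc
The JUN match TGACNTCA began 67 bp upstream of the 5′ end, and the JUND match began 200 bp upstream. ATF3, whose sequence is not shown, held the same motif 123 bp upstream. Both strands were searched, and 6.87% of 35116 RefSeq promoters of the same length held it. TATAAA began 33 bp upstream in FOS, 31 bp upstream in JUNB and 30 bp upstream in FOSB, and 230 bp upstream of the second ATF3 start, against 10.7% of promoters with a match anywhere in the 250 bases. EGR1 had 2 CArG boxes, at 105 and 83 bp upstream, and 1.16% of promoters had any. No member held TGANTCA (the AP-1 site, 6.57% of promoters) or a 12-base core of the CTCF motif (4.01%) in this stretch. FOSL2 matched none of these motifs. The GC content of the 9 starts searched ran from 44.8% to 74.8%, against a median of 58% over all promoters, and was 74.8% at JUND. FOSL1 and MYC were not analysed for sequence here.

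SMC1 peaks stood at the starts of most of these genes. A promoter peak was one whose summit, the middle of its region of highest signal, lay within 1 kb of the outermost 5′ end. In the control list 8 of the 10 genes had one (FOS, FOSL1, FOSL2, JUN, JUNB, JUND, EGR1 and MYC), against 31.7% of all protein-coding genes. The same 8 genes had one in the ICM list, against 27.6%. In the senescent list 5 had one (FOSL1, FOSL2, JUN, EGR1 and MYC), against 22.3%. FOSB and ATF3 had no SMC1 promoter peak at this outermost end in any list. Starts further inside a gene, as ATF3 has, were not counted. At the second ATF3 start listed by RefSeq, no SMC1 summit lay within 1 kb in any list. Other inner starts of ATF3 were not examined, so this does not show that they lack one. The share of the members was above that of all genes in each list, and it was lower in the senescent list, as it was over all genes. With summits allowed within 2500 bp the counts were 9, 8 and 8, against 34.5%, 31.0% and 25.7%, and the senescent count was that of the ICM list. With 1 library per list these differences were not tested.

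The 3 genes with an SMC1 promoter peak in the control and none in the senescent list were FOS, JUNB and JUND. Of all protein-coding genes with a control promoter peak, 37.7% had none in the senescent list, so 3 of 8 was near the background and is no result about these genes. None of the 8 lacked one in the ICM list, against 22.1% of all genes with a control promoter peak. From the ICM to the senescent list the same 3 of 8 were without one, against 33.0%. No member had an SMC1 promoter peak in the ICM or senescent list without one in the control list, against 10.7% of all genes with an ICM promoter peak and 11.5% of those with a senescent one. FOSL1, FOSL2, JUN, EGR1 and MYC had one in all 3 lists, 5 of 10 against 17.7% of all genes.

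Fewer of these starts had a CTCF peak. In the control list JUN and EGR1 had a CTCF promoter peak, 2 of 10 against 8.78% of all genes. In the ICM list FOSL2, JUN, JUND, EGR1 and MYC did, 5 of 10 against 12.6%. In the senescent list JUND alone did, 1 of 10 against 9.57%. No member had a CTCF promoter peak in all 3 lists, against 6.85% of all genes. FOS, FOSB, FOSL1, JUNB and ATF3 had none in any list.

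JUN and EGR1, the genes with a CTCF promoter peak in the control list, also had one in the ICM list, which 6.21% of all genes with a control promoter peak did not. Neither had one in the senescent list, as was so of 19.5% of all such genes. Senescent CTCF peaks still overlapped the control peaks at both genes, with summits beyond 1 kb. Of the 5 genes with a CTCF promoter peak in the ICM list, 3 had none in the control list (34.9% of all genes with one) and 4 had none in the senescent list (35.0%). JUND, the only gene with one in the senescent list, had none in the control list (26.1%). Some of these changes involved summits close to the 1 kb limit. Just inside it were EGR1 in the control and ICM lists, at 850 and 854 bp, and JUND in the ICM list, at 953 bp. Just outside it were JUN and EGR1 in the senescent list, at 1205 and 1235 bp, and MYC in the control and senescent lists, at 1275 and 1270 bp. The FOSL2 summit of the ICM list, 44 bp from the start, was not near the limit, and FOSL2 had no listed CTCF bases within 2 kb in the other lists. Counting instead any CTCF peak that covers the 5′ end gave 4 members in the control, 6 in the ICM and 2 in the senescent list. Under that rule 9.49%, 13.9% and 9.01% of all genes had one.

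**Figure D1:**
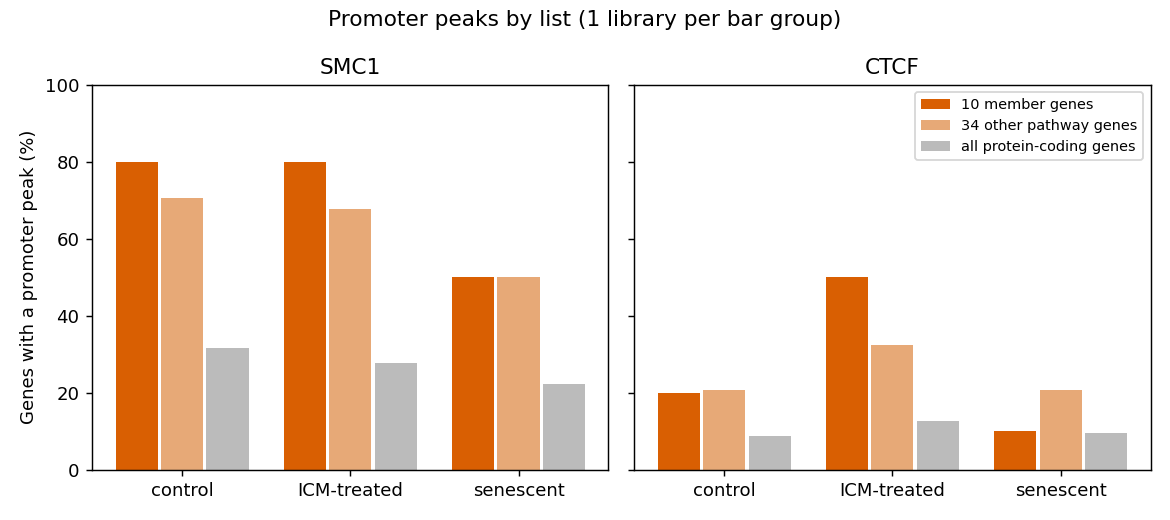
Share of genes with a promoter peak (%, vertical axis) in each list for SMC1 (left) and CTCF (right), for the 10 member genes, 34 other pathway genes and all protein-coding genes. Each bar is a share within 1 library, so there are no error bars. For SMC1 the members reach 8, 8 and 5 of 10 genes, above 31.7%, 27.6% and 22.3% of all genes. For CTCF they reach 2, 5 and 1 of 10.

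The other genes of the pathway were 34 regulators, partners and immediate early genes. SMC1 promoter peaks stood at 24 of them in the control, 23 in the ICM and 17 in the senescent list. Over all protein-coding genes the shares were 31.7%, 27.6% and 22.3%. Of the 24 genes with one in the control list, 7 had none in the senescent list, against a background of 37.7%: NR4A2 (a nuclear receptor), IER3, KLF2, NR4A1, CCN1, CCN2 and ZFP36. NR4A2 also had none in the ICM list. SRF, the factor that binds CArG boxes, and its partners ELK1 and ELK4 had one in all 3 lists. CTCF promoter peaks stood at 7, 11 and 7 of the 34 genes, against 8.78%, 12.6% and 9.57% of all genes. SRF, IER2, DUSP1 and MXD1 had one in all 3 lists, 4 of 34 against 6.85% of all genes.

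Among SMC1 promoter peaks, those of the members were wide and stood high by total signal. Their median percentile by total signal was 95.8 in the control, 94.1 in the ICM and 98.7 in the senescent list, against 60.5, 60.9 and 59.7 over all promoter peaks. By highest signal the medians were 81.6, 76.5 and 71.5, against 52.9, 47.6 and 49.7. The median width was 2302 bp in the control, 1472 bp in the ICM and 2684 bp in the senescent list, against 1004, 864 and 1097 bp. Total signal sums over the width, so these measures are not independent. By total signal 7 of 8, 5 of 8 and 4 of 5 member promoter peaks were above the 90th percentile of their list, against 14.5%, 15.1% and 14.3% of all promoter peaks. By highest signal 3 of 8, 2 of 8 and 2 of 5 were, against 13.3%, 11.5% and 10.7%.

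**Figure D2:**
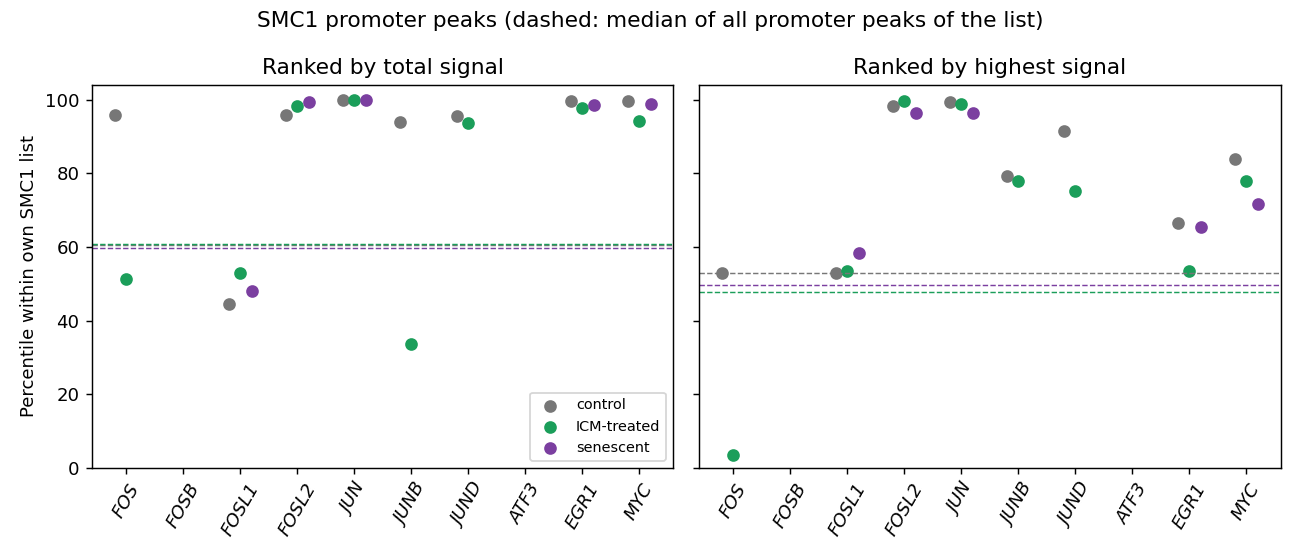
Percentile of each SMC1 promoter peak within its own list (vertical axis, 0 to 100), by total signal (left) and by highest signal (right), for each gene (horizontal axis). Points are single peaks coloured by condition, dashed lines are medians over all promoter peaks of a list, and a gap means no promoter peak. JUN, FOSL2, EGR1 and MYC are above the 90th percentile by total signal in every list, while FOSL1 sits between 44.5 and 52.8. FOS in the ICM list drops to 51.2 by total and 3.46 by highest signal.

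**Figure D3:**
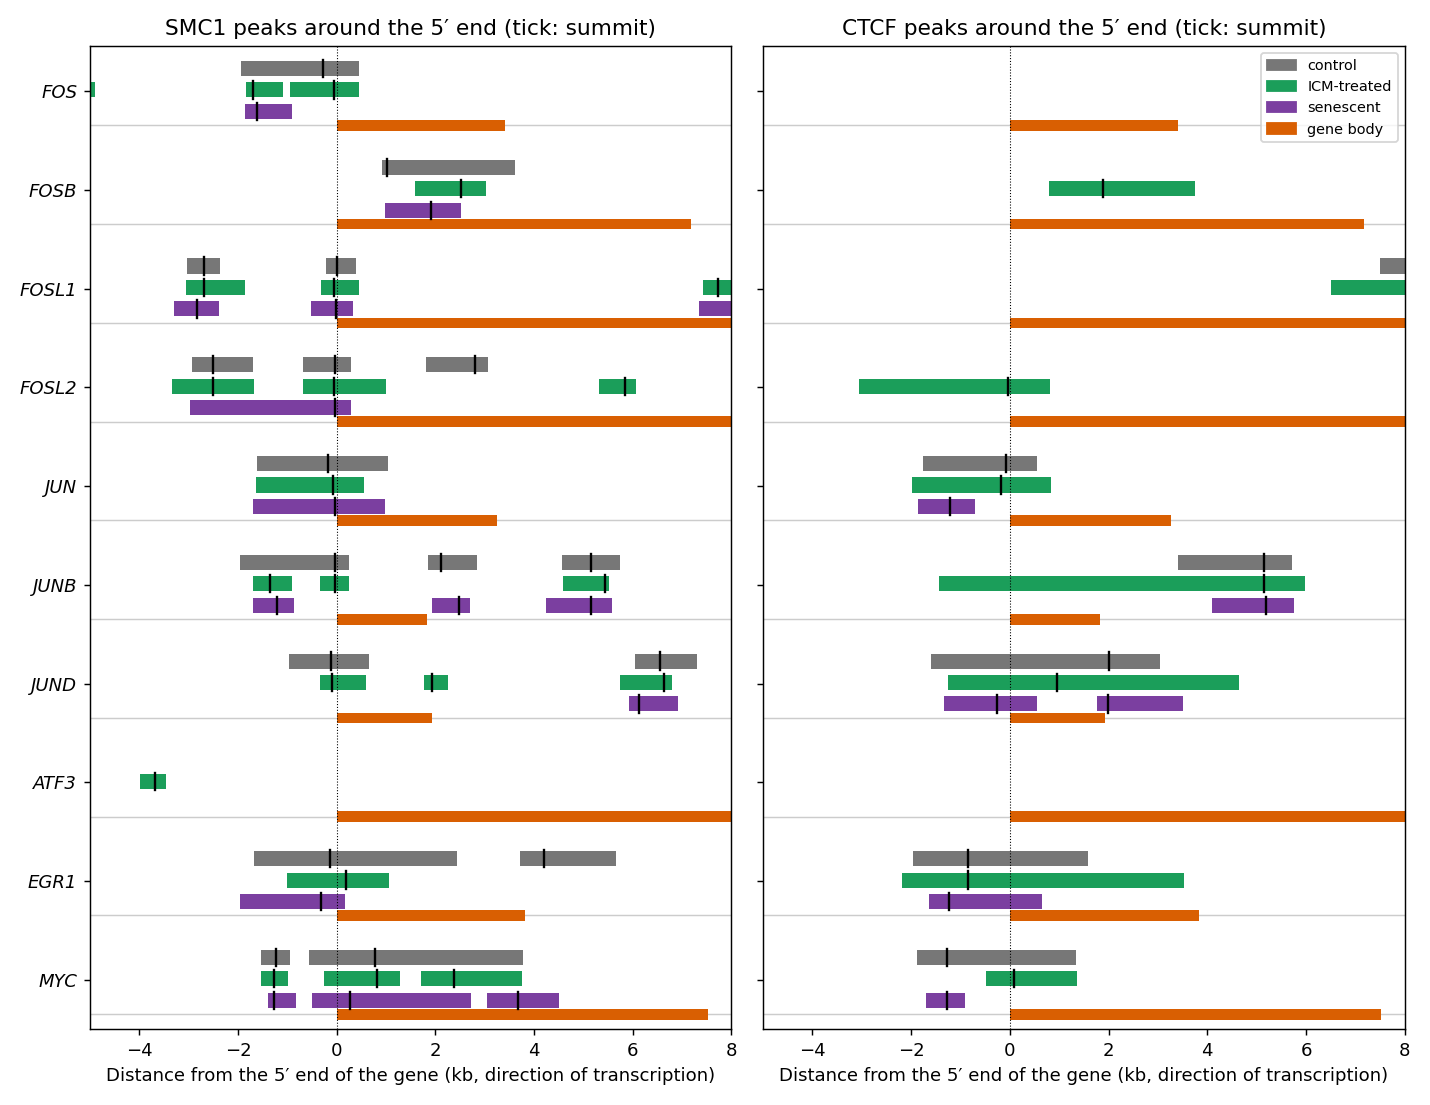
SMC1 peaks (left) and CTCF peaks (right) from 5 kb upstream to 8 kb downstream of each 5′ end (horizontal axis, kb in the direction of transcription). Bars are peaks to scale, coloured by condition, black ticks are summits, and orange bars are gene bodies. SMC1 bars cover the start of FOS, JUNB and JUND in the control and ICM lists and not in the senescent list. JUN and FOSL1 have a bar over the start in all 3.

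FOS, the AP-1 subunit best known for its brief induction, lies at chr14:75278828-75282230 on the plus strand. In the control list 1 SMC1 peak of 2384 bp covered its start, with the summit 271 bp upstream, at the 95.7th percentile by total signal. In the ICM list the same stretch was split between a peak of 1397 bp over the start, with the summit 57 bp upstream, and one of 767 bp with the summit 1689 bp upstream. In the senescent list the upstream peak alone was listed, 952 bp wide, with its summit 1616 bp upstream and at the 15.9th percentile. The senescent list thus held an SMC1 peak upstream of FOS and no peak over the sequence shown above. Listed SMC1 bases within 2 kb of the start numbered 2384, 2164 and 952 in the control, ICM and senescent lists. No CTCF peak lay within 2 kb of the start in any list. The nearest CTCF peak was 17246 bp downstream in the control and 17200 bp downstream in the ICM and senescent lists, at the 85.1st, 84.5th and 88.2nd percentile by total signal. SMC1 peaks overlapped it in all 3 lists. A further SMC1 peak 15279 to 15339 bp downstream was in all 3 lists, at the 82.0th percentile by total signal in the control, 75.6th in the ICM and 8.01st in the senescent list.

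FOSB, a FOS paralogue, lies at chr19:45467996-45475179 on the plus strand, near ERCC1 and RTN2. Its SMC1 peaks near the start lay inside the gene, with summits 1026 bp downstream in the control, 2527 bp in the ICM and 1905 bp in the senescent list. Their widths were 2681, 1452 and 1555 bp, and none covered the start. By total signal they had percentiles of 81.7, 72.6 and 23.0, and by highest signal 1.62, 22.3 and 5.36. The strongest feature near FOSB lay past its 3′ end, where CTCF summits were 10900 bp from the start in the control and ICM lists and 10650 bp in the senescent list, at the 98.0th, 99.2nd and 99.1st percentile by total signal. SMC1 summits 10672, 10590 and 10531 bp from the start overlapped them, at the 91.8th, 97.3rd and 96.5th percentile. Both antibodies thus marked the 3′ flank of FOSB in all 3 lists. CTCF was also listed in all 3 lists near 44 kb and 28 kb upstream, and near 17 kb, 26 kb and 56 kb downstream.

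FOSL1, also called FRA1, lies at chr11:65892049-65900545 on the minus strand, in a window with 9 other protein-coding starts. It had an SMC1 peak over its start in all 3 lists, with summits 12 bp downstream in the control, 46 bp upstream in the ICM and 19 bp upstream in the senescent list. These peaks were narrow, at 593, 772 and 870 bp, and of middle rank, at the 44.5th, 52.8th and 47.9th percentile by total signal. FOSL1 was thus the member with the lowest total-signal rank in the control and the senescent list. A separate SMC1 peak lay 2677 to 2829 bp upstream in all 3 lists. No CTCF peak was within 2 kb of the start. The CTCF peaks of its window included one past the 3′ end, at the start of the neighbouring gene FIBP, with summits 12093, 12093 and 12010 bp from the FOSL1 start and widths of 6151, 9805 and 2688 bp. It was at the 99.85th, 99.91st and 99.46th percentile by total signal in the control, ICM and senescent lists, and SMC1 peaks overlapped it in all 3.

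FOSL2, also called FRA2, lies at chr2:28392858-28417317 on the plus strand, with no other protein-coding start in its window. Its SMC1 promoter summit was 40, 44 and 39 bp upstream in the control, ICM and senescent lists. The peak was 973 bp wide in the control, 1684 bp in the ICM and 3268 bp in the senescent list. A separate SMC1 peak about 2.5 kb upstream was listed in control and ICM cells, and the senescent peak ran through that place as a single stretch. By total signal the promoter peaks were at the 95.8th, 98.3rd and 99.4th percentile. CTCF was listed at the start in the ICM list only, with a peak of 3867 bp whose summit was 44 bp upstream, at the 64.6th percentile by total and the 19.3rd by highest signal. CTCF and SMC1 peaks overlapped each other 59705 to 59797 bp downstream of the start in all 3 lists.

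JUN, the core partner of the FOS proteins, lies at chr1:58780791-58784047 on the minus strand, with no other protein-coding start in its window. Its SMC1 promoter peak ranked 14th of the control list, 17th of the ICM list and 26th of the senescent list by total signal. The summits were 183, 69 and 25 bp upstream and the widths 2674, 2192 and 2684 bp. Listed SMC1 bases within 2 kb of the start were the same numbers, since 1 peak held them all. JUN thus had the highest total-signal rank of the members' SMC1 promoter peaks in each list. CTCF peaks of 2308 and 2828 bp covered the start in the control and ICM lists, with summits 72 and 183 bp upstream and percentiles of 60.6 and 64.9 for total signal. The senescent CTCF peak was 1146 bp wide, had its summit 1205 bp upstream and did not cover the start. SMC1 peaks lay 28414 to 28481 bp downstream in all 3 lists and 31289 bp upstream in the control and ICM lists, none with a CTCF peak.

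JUNB, a JUN family member that also forms AP-1 dimers, lies at chr19:12791486-12793315 on the plus strand. Its window holds 7 other protein-coding starts. Its control SMC1 peak was 2219 bp wide with the summit 27 bp upstream, at the 93.9th percentile by total signal. In the ICM list the peak at the start was 579 bp wide with the summit 25 bp upstream, at the 33.7th percentile, and a second peak had its summit 1344 bp upstream. The summits at the start were also 891 bp (control) and 889 bp (ICM) from the start of HOOK2. Both peaks thus met the 1 kb promoter limit for that gene as well. In the senescent list the nearest peak had its summit 1206 bp upstream, 838 bp wide and at the 59.2nd percentile, and it did not cover the start. At and upstream of its start JUNB thus showed the same order as FOS, with a wide control peak, a split ICM peak and the upstream piece in the senescent list. Just past the 3′ end, a further SMC1 peak had its summit 2123 bp downstream in the control and 2481 bp in the senescent list. The ICM list had none there. CTCF summits lay 5155 bp downstream in the control and ICM lists and 5195 bp in the senescent list. The ICM peak there was 7426 bp wide and ran back across the start, whereas the control and senescent peaks, of 2320 and 1655 bp, did not reach it. Upstream, CTCF summits near 34, 25, 16 and 14 kb from the start were in all 3 lists. The site 25217 to 25220 bp upstream was at the 94.5th, 93.0th and 99.1st percentile by total signal, and SMC1 peaks overlapped it in every list.

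JUND, the JUN family member known for steady expression in resting cells, lies at chr19:18279694-18281622 on the minus strand. SMC1 covered its start in the control list (1608 bp, summit 107 bp upstream, 95.6th percentile by total signal) and in the ICM list (934 bp, summit 98 bp upstream, 93.8th percentile). No SMC1 peak lay within 2 kb of the start in the senescent list. JUND was the only member of the 3 without a senescent SMC1 promoter peak to lack one there also when the limit was widened to 2500 bp. CTCF peaks covered the start in all 3 lists, with widths of 4631, 5889 and 1868 bp and summits 2004 bp downstream, 953 bp downstream and 251 bp upstream. The senescent CTCF peak at the start stood low, at the 17.8th percentile by total and the 1.82nd by highest signal, and no SMC1 peak overlapped it. Far upstream, CTCF and SMC1 overlapped near 47 kb and 42 kb from the start in all 3 lists.

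ATF3, a stress-induced bZIP factor, lies at chr1:212565407-212620777 on the plus strand, and is the longest of the 10 genes. No peak of either antibody lay within 2 kb of its outermost 5′ end in any list. The RefSeq promoter table lists a second start 49611 bp further in. The strongest SMC1 peak of the gene body lay 43200, 43285 and 43276 bp from the outermost start in the control, ICM and senescent lists, at the 97.2nd, 98.3rd and 86.0th percentile by total signal. This peak is inside the gene as annotated from the outermost start, and ahead of the second listed start. Starts of ATF3 missing from that table were not examined, so whether this peak lies at one was not tested. CTCF peaks overlapped it in all 3 lists, at the 23.6th, 35.5th and 12.3rd percentile. About 100 kb from the outermost start, near BATF3, both antibodies were listed in all 3 lists, SMC1 at the 95.5th, 98.5th and 90.4th percentile and CTCF at the 82.9th, 82.7th and 95.5th.

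EGR1, a zinc finger factor induced through serum response factor, lies at chr5:138465479-138469303 on the plus strand. SMC1 covered its start in all 3 lists with widths of 4107, 2081 and 2129 bp in the control, ICM and senescent lists. The summits were 125 bp upstream, 193 bp downstream and 320 bp upstream, and the peaks were at the 99.5th, 97.7th and 98.5th percentile by total signal. By highest signal they stood lower, at the 66.4th, 53.5th and 65.4th. EGR1 had the strongest CTCF promoter peaks of the members, ranked 15th of the control list and 5th of the ICM list by total signal, with widths of 3538 and 5713 bp and summits 850 and 854 bp upstream. The senescent CTCF peak was 2286 bp wide and still covered the start, with its summit 1235 bp upstream and at the 97.9th percentile. The CTCF summit thus lay upstream of the CArG boxes printed above in each list. Another CTCF peak lay 15268 to 15309 bp upstream in all 3 lists.

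MYC, a growth-promoting transcription factor, lies on chromosome 8 with no other protein-coding start in its window. SMC1 covered its start in all 3 lists, with widths of 4328, 1547 and 3220 bp and summits 781, 827 and 278 bp downstream. By total signal the peaks were at the 99.7th, 94.3rd and 98.7th percentile. A separate narrow SMC1 peak, of 580, 541 and 562 bp, had its summit 1230, 1262 and 1274 bp upstream. A further SMC1 peak lay inside the gene in the ICM list (2056 bp, summit 2375 bp downstream) and in the senescent list (1460 bp, summit 3667 bp downstream). The control peak over the start ran across the place of that ICM peak as a single stretch. Each list thus held an SMC1 peak over the MYC start and a narrow one upstream of it. CTCF summits coincided with the upstream one in the control and senescent lists, 1275 and 1270 bp upstream, and the control CTCF peak of 3214 bp also ran across the start. In the ICM list the CTCF peak was 1853 bp wide with the summit 87 bp downstream, at the 19.4th percentile by total signal.

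**Figure D4:**
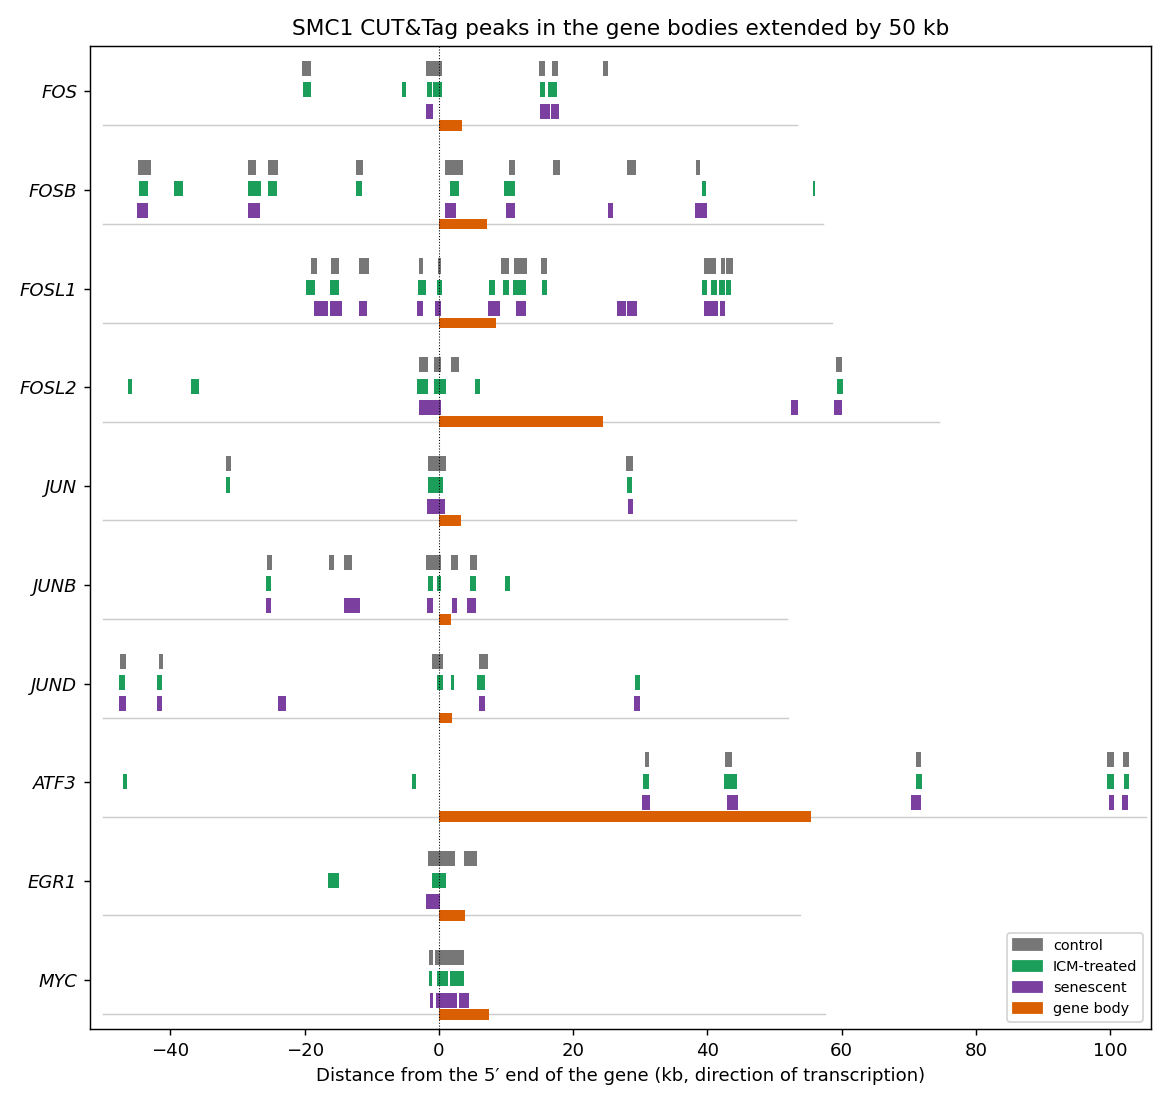
SMC1 peaks in the gene bodies extended by 50 kb, by distance from the 5′ end (horizontal axis, kb in the direction of transcription). Bars are peaks to scale, coloured by condition, orange bars are gene bodies, and grey lines are the windows. The windows hold 51 control, 59 ICM and 44 senescent peaks, and the FOSL1 window holds 11, 12 and 11 of them.

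**Figure D5:**
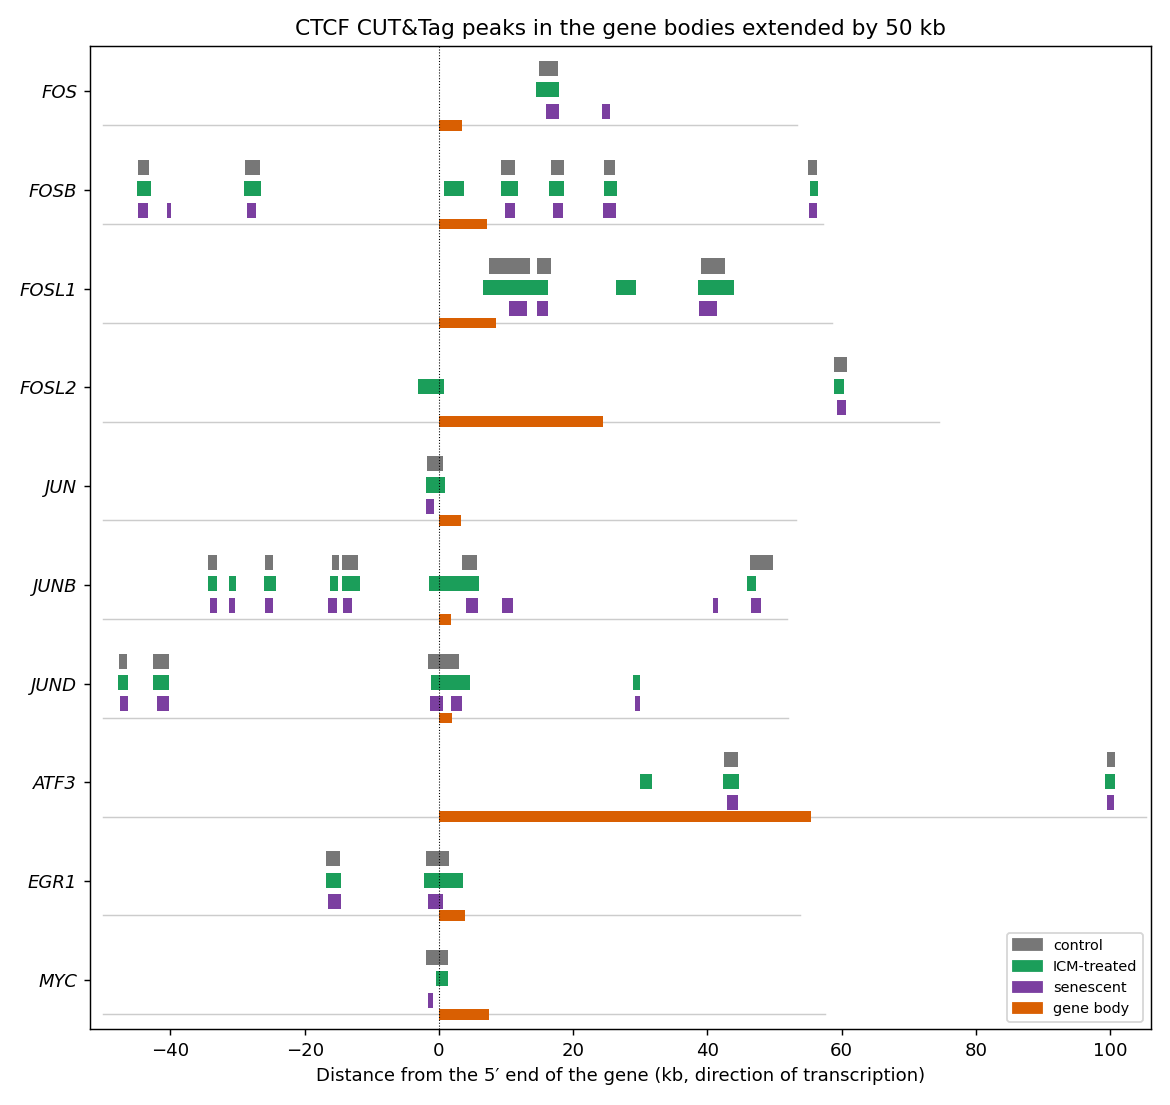
CTCF peaks in the same windows, drawn the same way. The windows hold 26 control, 31 ICM and 33 senescent peaks. JUN and MYC have CTCF peaks only within 2 kb of the start, and their senescent peaks do not cover it. JUNB and FOSB have series of distal peaks that recur in all 3 lists.

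Across the whole windows all 10 genes had at least 1 peak of each antibody in every list. For SMC1 this was so of 69.0%, 69.8% and 63.8% of all protein-coding genes in the control, ICM and senescent lists, and for CTCF of 42.2%, 52.3% and 56.3%. The windows held 51, 59 and 44 SMC1 peaks, a mean of 5.1, 5.9 and 4.4 per gene against 1.86, 2.03 and 1.63 over all genes. They held 26, 31 and 33 CTCF peaks, a mean of 2.6, 3.1 and 3.3 against 0.751, 1.02 and 1.24. The order of the conditions in the windows was that of the list lengths for both antibodies. Most SMC1 peaks were distal, 31 of 51 in the control, 37 of 59 in the ICM and 29 of 44 in the senescent list. The 3′ flank, the 10 kb past the 3′ end, held 8, 8 and 5 of them. Promoters of other protein-coding genes held 10, 11 and 8, with the members' own promoter peaks left out of this count. Part of what the windows contain thus belongs to neighbours, above all around FOSL1.

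Around the members, about as many SMC1 sites recurred between the lists as elsewhere when summits were compared. Joined by summits within 100 bp windows, the SMC1 peaks formed 97 sites, of which 18 were in all 3 lists (18.6%, exact binomial 95% interval 11.4 to 27.7%), against 20.2% of all SMC1 sites. The CTCF peaks formed 46 sites, of which 17 were in all 3 lists (37.0%, 23.2 to 52.5%), against 26.8%, which lies inside that interval. Joining whole peaks that share at least 1 bp gave 32 of 67 SMC1 sites (47.8%, 35.4 to 60.3%), against 36.5%, and 25 of 35 CTCF sites (71.4%, 53.7 to 85.4%), against 41.4%. The intervals cover counting only, and sites within a window are not independent. The members' share was thus below that of all SMC1 sites by summits and above it by whole peaks. For CTCF it was above by both, with 41.4% outside the interval by whole peaks, but in windows of 10 kb it was below by summits, with 3 of 22 sites (13.6%) against 26.8%. With lists cut to equal length the CTCF share by whole peaks was 18 of 31 sites (58.1%), against 47.7%.

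The overlap of the antibodies was counted next. Of the members' SMC1 peaks, 25 of 51 in the control (49.0%, exact binomial 95% interval 34.8 to 63.4%) and 34 of 59 in the ICM list (57.6%, 44.1 to 70.4%) overlapped a CTCF peak of the same condition, against 25.2% and 30.2% of all SMC1 peaks. In the senescent list 20 of 44 did (45.5%, 30.4 to 61.2%), an interval that holds the 33.9% of all SMC1 peaks. Peaks of 1 window are not independent, so the intervals cover counting only. Of the members' CTCF peaks, 21 of 26 (80.8%), 23 of 31 (74.2%) and 19 of 33 (57.6%) overlapped an SMC1 peak, against 75.8%, 72.6% and 50.2%. The second set of shares was near that of all CTCF peaks. At the starts themselves, the SMC1 peaks of FOSL1 overlapped no CTCF peak in any list, and those of JUN and EGR1 overlapped one in all 3.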

How the data were processed

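CUT&Tag libraries for CTCF and SMC1 were aligned by the authors with Bowtie2 2.3.4.1 to GRCh38 and to a spike-in genome, with Picard 2.20.7 and deepTools also named in the submitters' processing notes, and peaks were called per library with SEACR 1.3 (stringent mode, top 1%). The deposited lists give the total and the highest signal of each peak, and the methods state a minimum number of reads per sample but no depth per library. How calibration acted on the deposited signal is not stated, so values were ranked within a list only. The mitochondrial peak of a list was left out. The study describes a motif filter for CTCF, and the CTCF lists used here are slightly longer than its filtered sets, so they are not those sets as counted there.

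Gene positions came from RefSeq (GRCh38.p14). Strand came from the RefSeq promoter table for 15812 protein-coding genes and from GENCODE v44, by symbol and chromosome, for 3818, which covered 98.3% of 19974. The summit was the midpoint of the region of highest signal. Each list is a single library, so shares are given beside those of all genes or peaks and no test was run. All members are named. The members, the other gene lists and the rules were chosen with earlier results of these data known. The joining of peaks into sites and the promoter and window counts were tested on simulated peaks. The placing of summits and the overlap of the antibodies were not. Python 3.11.15, pandas 2.3.3, numpy 2.4.6, scipy 1.17.1 and matplotlib 3.10.9 were used. Alternatives changed the promoter limit, the window, the way peaks were joined, and the part of each list used.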

Additional observations from a re-analysis of the deposited data

How the results depend on the processing

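The counts depend on the promoter limit, the window and how peaks are joined. SMC1 promoter members in the senescent list numbered 8 with summits within 2500 bp, against 25.7% of all genes. Then 1 of 9 control promoter members (JUND) had none there, against 34.5% of all genes with a control promoter peak. This last alternative was chosen after seeing the data. CTCF promoter members within 500 bp numbered 1 in the control and 3 in the ICM list, against 7.26% and 10.8% of all genes. Within 2500 bp they numbered 4 in the control and 4 in the senescent list, against 10.9% and 12.4%. Where any base over the 5′ end counted they numbered 4 and 2, against 9.49% and 9.01%. With lists of equal length by highest signal the CTCF count was 1 in the ICM list, against 7.46% of all genes. It was 0 in the senescent list with lists of equal length by total or by highest signal and in the upper 50% of each list. Under these rules 5.37%, 4.28% and 5% of all genes had one.

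Windows of 10 kb held 24, 29 and 19 SMC1 and 10, 12 and 12 CTCF peaks (control, ICM, senescent). Windows of 25 kb held 16, 19 and 19 CTCF peaks. The upper 50% of each list held 35 ICM and 24 senescent SMC1 peaks and 19 ICM CTCF peaks. Member sites in all 3 lists made up 47.8% of SMC1 sites by whole peaks, 30.9% with 500 bp summit windows and 48.3% by whole peaks in lists of equal length. Over all SMC1 sites the shares were 36.5%, 33.5% and 37.5%, so the members were below with 500 bp summit windows. For CTCF the member share was 71.4% by whole peaks, against 41.4% of all sites. By whole peaks in lists of equal length it was 58.1%, against 47.7%. In 10 kb windows it was 13.6%, below the 26.8% of all sites, where the 37.0% in 50 kb windows was above. Both alternatives with lists of equal length and whole peaks were chosen after seeing the data. The median percentile of senescent SMC1 promoter peaks was 71.5 by highest signal. These 31 values moved beyond their limits, 60 others did not, and the cause was not tested. No paired analysis was possible because each antibody and condition has 1 library. Depth per library is unknown, so places without a peak cannot be told from places too thinly sequenced.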
